A study of Mus musculus with 9 samples.

Results

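The genes described are 9 mouse inhibitors of cysteine proteases, taken from the 53379 genes of the RNA-seq table by their symbols. They comprise 7 members of the stefin A cluster (Stfa1, Stfa2, Stfa3, Stfa2l1, BC100530, 2010005H15Rik and Gm5483), the related stefin Cstb (cystatin B) and the secreted cystatin Cst3 (cystatin C). The genes were proposed with values of these same libraries in view, so their levels under each treatment are given as a description without a test. All 9 had a mean FPKM (fragments scaled by transcript length and library size) of at least 0.5 over the 9 libraries, the filter used for testing, but several stefin A genes reached it through the IL-6 libraries alone.

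Bone marrow (BM) cells of 3 wild-type C57BL/6 mice had been kept for 3 days in 10 ng/ml CSF-1, which drives macrophage (Mϕ) differentiation. CSF-1 was then kept at 10 ng/ml for 4 further days, alone in the control group, with 10 ng/ml IL-4 in the IL-4 group or with 100 ng/ml IL-6 in the IL-6 group. These doses and times are those of the series' design text, since the treatment label holds typing errors (it names an IL-5 group and breaks up the IL-6 dose). The study's methods give another dose of IL-4, and its figure legends other doses and times. Each group holds 3 libraries, numbered 1 to 3 alike, and the age of the mice is not given in the sources used here. These are whole cultures without a sort, so a change in the share of a cell type and a change in RNA per cell cannot be told apart in any value below.

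Libraries held 29988160 to 39909571 fragments. All 10 Mϕ markers examined were detected in each group, but their summed FPKM was 6360 to 7200 in IL-4 libraries against 16800 to 19000 in control and 20500 to 21600 in IL-6 libraries. All 20 markers of neutrophils and granulocyte precursors were detected in each group as well. Transcripts of intestinal Paneth and goblet cells, which have no place in such cultures, gave 864 to 1088 fragments in each of 4 libraries, the 3 controls and IL-4 #1, against 3 to 8 fragments in each of the remaining 5. Control and IL-6 libraries lie wholly on opposite sides of that division, so IL-6 treatment and the division cannot be told apart between those libraries. IL-4 has libraries on both sides, and a model with the division as a term rests on them alone. Only IL-4 #1 lies on the side of the controls, so there such values rest on that library alone. IL-4 #3 stood apart in its own group for most members.

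Stefins are small cytosolic proteins that block papain-like cysteine proteases, the cathepsins of the lysosome, by inserting a wedge of loops into the active-site cleft. Mice carry an expanded stefin A cluster, known for its expression in granulocytes and skin, while cystatin B is found in nearly all cells. Cystatin C carries a signal peptide and inhibits the same enzymes outside cells and in the secretory and endocytic compartments, and Mϕs are a well-known source of it.

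The stefin A genes lie together on chromosome 16 (GRCm38, GENCODE M21 coordinates). Stfa2l1 spans chr16:36156811-36161953, Gm5483 chr16:36184212-36188111, 2010005H15Rik chr16:36221468-36257444 and Stfa1 chr16:36276951-36285373, all on the plus strand. BC100530 spans chr16:36359382-36367748, Stfa2 chr16:36403992-36408457 and Stfa3 chr16:36450537-36455392, all on the minus strand. Cstb lies on chromosome 10 (chr10:78425669-78427622, plus strand) and Cst3 on chromosome 2 (chr2:148871722-148875692, minus strand). BC100530, 2010005H15Rik and Gm5483 are listed by RefSeq as Cstdc5, Csta2 and Cstdc4.

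How alike the paralogs are matters for every value that follows, because a fragment from a shared stretch cannot be assigned to a single gene. The windows below are 45 bases of coding sequence from GENCODE M21 transcripts, read 5′ to 3′ on the coding strand. Capitals mark the 5 codons for glutamine, any residue, valine, any residue and glycine, the conserved loop that enters the protease cleft.
Stfa1: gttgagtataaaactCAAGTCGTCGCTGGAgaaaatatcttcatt
BC100530: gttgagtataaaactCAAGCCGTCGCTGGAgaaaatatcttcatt
Gm5483: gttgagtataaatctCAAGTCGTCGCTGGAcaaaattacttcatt
2010005H15Rik: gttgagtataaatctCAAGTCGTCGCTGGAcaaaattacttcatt
Stfa2l1: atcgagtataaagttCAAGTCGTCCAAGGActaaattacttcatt
Stfa2: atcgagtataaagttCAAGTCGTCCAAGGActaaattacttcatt
Stfa3: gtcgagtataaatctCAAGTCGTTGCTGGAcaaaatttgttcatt
Cstb: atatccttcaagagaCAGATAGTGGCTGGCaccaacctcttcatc

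The windows of Stfa2 and Stfa2l1 were identical, as were those of Gm5483 and 2010005H15Rik, and those of Stfa1 and BC100530 differed at 1 of 45 bases. Among the 21 pairs of stefin A genes 0 to 12 bases of the window differed (median 7). The Cstb window differed from them at 21 to 25 bases. Over the aligned coding bases, with gaps left out, the same 3 pairs were the closest. Identity was 98.0% between Stfa1 and BC100530, 96.9% between Gm5483 and 2010005H15Rik and 96.5% between Stfa2 and Stfa2l1. The Stfa1 coding sequence used held 387 bases, of which 294 aligned with BC100530. The other stefin A pairs reached down to 77.9% (median of all 21 pairs 82.3%), and Cstb matched them at 55.4% to 61.5% of bases.

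Of all 50-base stretches in the transcripts of BC100530, 48.9% also occurred in another gene. The share was 35.6% for Gm5483, 24.6% for Stfa2l1, 22.5% for Stfa1, 20.4% for 2010005H15Rik and 15.9% for Stfa2. Stfa3, Cstb and Cst3 shared none. Lengths inferred from the deposited values were shorter for Stfa1, Stfa2 and Stfa2l1 (418, 423 and 414 bases) than in M21 (710, 471 and 419). Shares for these genes thus describe the M21 transcripts, which need not be those behind the deposited values. At 100 bases the shares fell to 22.3% for BC100530 and 11.1% for Gm5483, and Stfa2 and Stfa2l1 shared none. How the deposited values treated fragments with several matches is not given in the sources used here, so the split within a near-identical pair is uncertain, and sums over each pair are given below. BC100530 also overlaps Gm15845, annotated on the opposite strand. The library kit kept strand, but whether counting used it is not stated.

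Stefin A transcripts were scarce in control Mϕs, and all 7 genes were higher with IL-6. The summed FPKM of the cluster was 5.53, 5.56 and 8.91 in control libraries, 6.34, 7.25 and 17.2 in IL-4 libraries and 116, 138 and 71.9 in IL-6 libraries. Group means were 6.67 ± 1.94 for control, 10.3 ± 6.01 for IL-4 and 109 ± 33.6 for IL-6 (SD, n = 3). IL-6 libraries thus held 16.3 times the control level and 10.6 times the IL-4 level (16.0 times without IL-4 #3), and no IL-6 library came near the other 6.

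Each of the 7 genes was higher in all IL-6 libraries than in any control or IL-4 library. Over all 12824 tested genes 20% lay wholly above control with IL-6 and 36.3% wholly above IL-4. By limma's thresholds 3.49% of tested genes were called higher with IL-6 than in control and 13.6% higher than with IL-4. Nothing is read from the members against these shares, since the members were chosen on this contrast. The plot of stefin A levels shows the separation gene by gene.

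**Figure D1:**
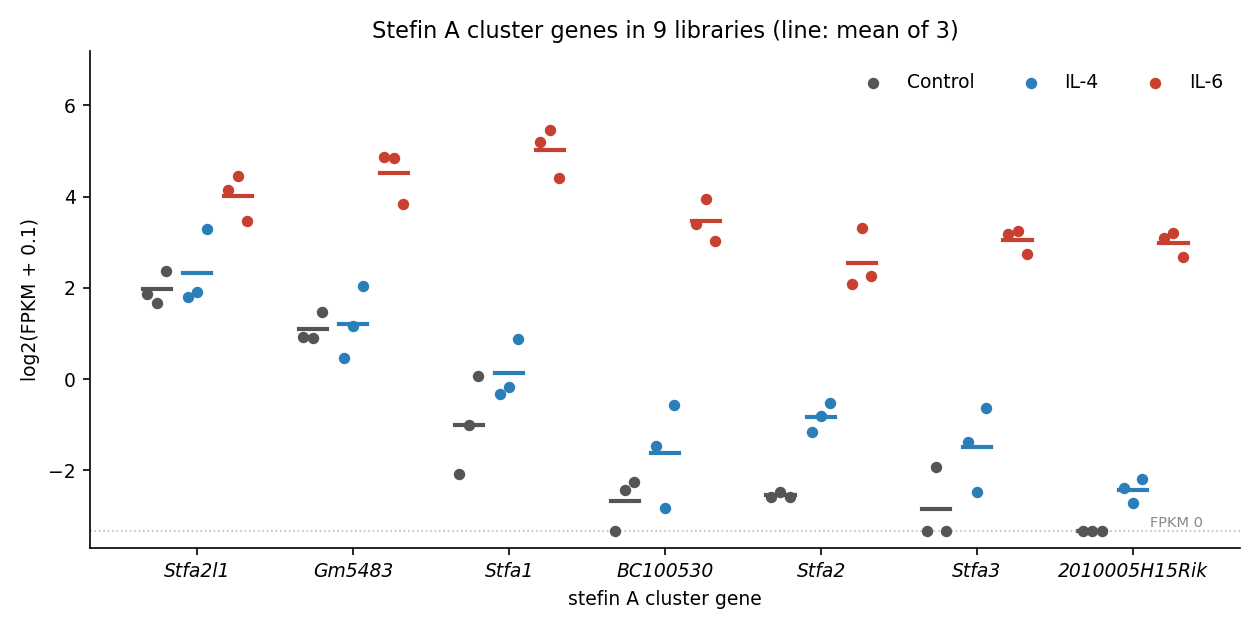
Level of each stefin A cluster gene in each library, as log2(FPKM + 0.1), with 3 points per group and a line at their mean. IL-6 points lie above all control and IL-4 points for each of the 7 genes, Stfa2l1 and Gm5483 start highest in control, and 2010005H15Rik is at 0 in the 3 control libraries.

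Stfa1 (stefin A1) was not the leading member without cytokine but had the highest mean of the stefin A cluster with IL-6, with a range that overlapped that of Gm5483. It measured 0.137, 0.399 and 0.955 FPKM in control libraries, 0.7, 0.789 and 1.74 in IL-4 libraries and 36.8, 44.2 and 21.1 in IL-6 libraries. The IL-6 mean of 34.0 ± 11.8 was 68.5 times that of control, and 1411 fragments stood against 21, a pooled ratio of 68.4 with a 95% counting interval of 44.6 to 111. Control #3 held 14 of the 21 control fragments, and without it the IL-6 mean was 127 times that of control. That lies above the interval, which covers counting error only. Control and IL-4 libraries overlapped.

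BC100530, nearly identical to Stfa1 over its own, shorter coding sequence, was close to absent without IL-6. It measured 0, 0.0844 and 0.108 FPKM in control libraries, 0.259, 0.0418 and 0.571 in IL-4 libraries and 10.5, 15.3 and 8.0 in IL-6 libraries. Its 877 fragments with IL-6 stood against 5 in control, a pooled ratio of 178 (counting interval 76.2 to 551). Against control without Control #3 the ratio of means went from 175 to 267. IL-4 libraries held 26 fragments, 18 of them in IL-4 #3, and the ratio of IL-6 to IL-4 went from 38.7 to 74.8 without that library. Stfa1 and BC100530 together averaged 0.561 ± 0.468 FPKM in control libraries and 45.3 ± 15.3 in IL-6 libraries, 80.7 times as much. In fragments, which do not depend on how they were split between the pair, 2288 stood against 26, a pooled ratio of 89.5.

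Stfa2l1 was the leading stefin A transcript without cytokine and the one with the smallest fold. It measured 3.53, 3.06 and 5.09 FPKM in control libraries, 3.39, 3.67 and 9.62 in IL-4 libraries and 17.7, 21.7 and 10.9 in IL-6 libraries. The IL-6 mean was 4.31 times that of control (688 against 163 fragments, pooled ratio 4.3, counting interval 3.62 to 5.13). IL-4 #3, at 9.62, came close to the lowest IL-6 library, IL-6 #3, and the ratio of IL-6 to IL-4 was 3.02 with it and 4.75 without it. The log2 fold change of Stfa2l1 between IL-6 and control libraries, 2.06 in the model of groups alone, was 1.26 once the division was a term.

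Stfa2, whose loop window is the same as that of Stfa2l1, was far lower in control. It had 1 fragment in each control library, 5, 6 and 10 fragments in IL-4 libraries and 61, 135 and 61 in IL-6 libraries. In FPKM these were 0.0677, 0.0788 and 0.0674, then 0.346, 0.468 and 0.592, then 4.13, 9.77 and 4.7. The 3 groups did not overlap at all, but with 3 fragments over the control group the pooled ratio for IL-6 of 87.2 has a counting interval of 29.5 to 425. The sum of Stfa2l1 and Stfa2 averaged 3.97 ± 1.06 FPKM in control libraries and 23.0 ± 7.97 in IL-6 libraries, 5.79 times as much.

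Gm5483 was the second stefin A transcript of control Mϕs. It measured 1.8, 1.77 and 2.68 FPKM in control libraries, 1.27, 2.15 and 3.99 in IL-4 libraries and 29.0, 28.6 and 14.3 in IL-6 libraries. The IL-6 mean was 11.5 times that of control, and control and IL-4 libraries overlapped. The log2 fold change of Gm5483 between IL-6 and control libraries, 3.42 in the model of groups alone, was 2.27 once the division was a term. Its near-identical partner 2010005H15Rik had 0 fragments in all 3 control libraries, 2, 1 and 3 in IL-4 libraries and 188, 190 and 124 in IL-6 libraries. Set against a floor of 3 fragments over the control group, 2010005H15Rik was 170 times higher with IL-6, and the lower 95% counting limit of the ratio was 138. The sum of the pair averaged 2.09 ± 0.519 FPKM in control libraries and 31.9 ± 9.79 in IL-6 libraries, 15.3 times as much, and its fragments from 87 to 1490, a pooled ratio of 17.4.

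Stfa3 is the only stefin A member that shares no 50-base stretch with another annotated gene, which makes its values the least open to fragments of paralogs. It had 0, 2 and 0 fragments in control libraries, 4, 1 and 9 in IL-4 libraries and 129, 126 and 83 in IL-6 libraries. In FPKM the IL-6 libraries measured 8.98, 9.37 and 6.56, while control libraries measured 0, 0.162 and 0. With 2 control fragments the pooled ratio of 172 had a counting interval of 47.2 to 1430. The pooled ratio to IL-4 of 25.7 had one of 15.1 to 47.4. Neither covers the spread between libraries. IL-4 #3 held 9 of the 14 IL-4 fragments, and without it the ratio of means went from 27.3 to 45.6.

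IL-6 #3 was the lowest of the IL-6 libraries for 6 of the 7 stefin A genes, with Stfa2 the exception. The composition of the cluster differed between groups as well, as the plot of stefin A shares shows. Stfa2l1 and Gm5483 together held 96.3%, 87.0% and 87.3% of the summed stefin A FPKM of control libraries, 73.5%, 80.3% and 79.2% of IL-4 libraries and 40.4%, 36.4% and 35.1% of IL-6 libraries. The share of Stfa1 went from 6.79% ± 4.13 in control to 31.1% ± 1.5 with IL-6 and that of Stfa2l1 from 58.7% ± 4.54 to 15.4% ± 0.259 (SD, n = 3).

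**Figure D2:**
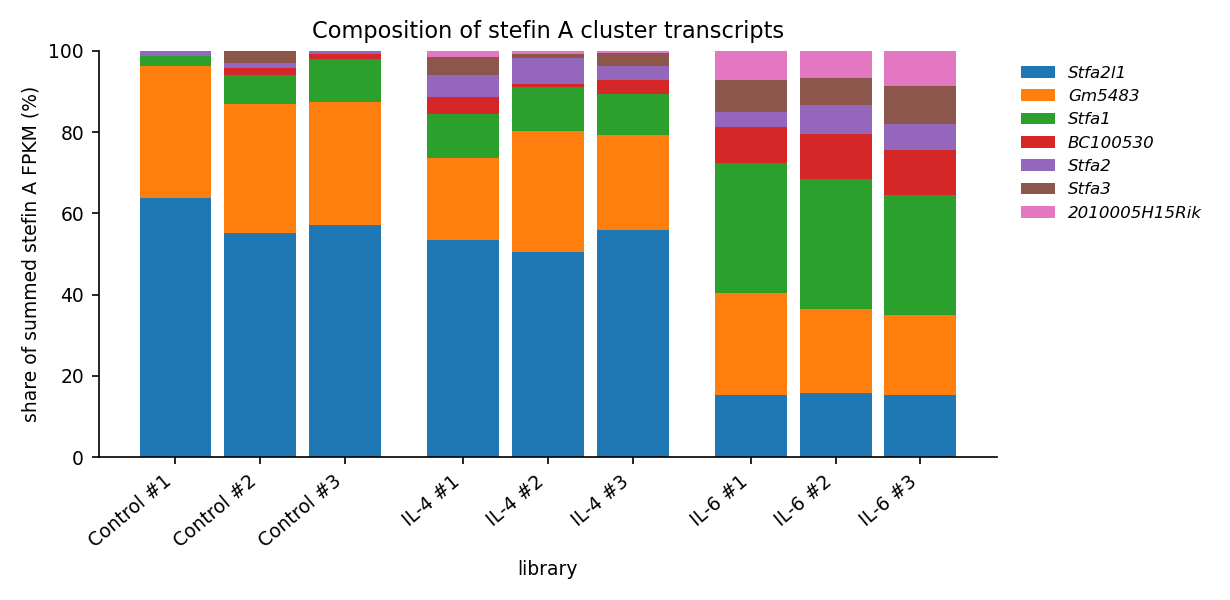
Share of each gene in the summed stefin A FPKM of each library, in percent, as stacked bars. Stfa2l1 and Gm5483 fill 87.0% to 96.3% of the control bars and 35.1% to 40.4% of the IL-6 bars, where Stfa1 is the largest part.

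Ordered by level, control Mϕs ranked Stfa2l1, Gm5483 and Stfa1 with ranges that did not overlap, and Stfa2, BC100530, Stfa3 and 2010005H15Rik below them at 0.0713 FPKM or less. In IL-6 libraries the order was Stfa1, Gm5483, Stfa2l1, BC100530, Stfa3, 2010005H15Rik and Stfa2, but each neighbour in that order overlapped the next. The means ran from 34.0 down to 6.2 FPKM, a narrower span than in control. There Stfa2, BC100530, Stfa3 and 2010005H15Rik had 3, 5, 2 and 0 fragments over the group, so the low end is near the floor. FPKM are scaled by transcript length. Both orders and the shares above also depend on how fragments were split between near-identical genes, which is uncertain.

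With IL-4 the stefin A genes showed smaller differences from control, and these rested in part on IL-4 #3. The summed level was 1.54 times that of control, 1.02 times without IL-4 #3 and 0.952 times for IL-4 #1 alone against controls, the comparison inside the libraries with intestinal transcripts. Only Stfa2 and 2010005H15Rik had all IL-4 libraries above all control libraries, against 13.5% of tested genes. For Stfa2 that was 21 fragments against 3 (pooled ratio 6.7, counting interval 2.0 to 35.1). For 2010005H15Rik it was 6 against 0, 1.92 times the floor, with a lower 95% counting limit of 1.13. Against IL-4, the stefin A sum with IL-6 was 8.88 times higher inside the 5 libraries without intestinal transcripts and 16.0 times higher without IL-4 #3.

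Granulocyte transcripts are set beside the stefin A sum because stefin A genes are known in those cells. The 20 markers summed to 5310, 9270 and 8390 FPKM in control libraries, 2500, 2340 and 4270 in IL-4 libraries and 8590, 11500 and 11900 in IL-6 libraries. Their sum with IL-6 was 1.39 times that of control and 3.51 times that of IL-4. S100a8 and S100a9 made up most of the sum in every library. In IL-6 #2 they were at 2710 and 6050 FPKM. Of the 20 markers only Mmp8, a neutrophil collagenase, was called higher with IL-6 than in control (log2 fold change 1.38, limma adjusted p = 0.0112), against 3.49% of tested genes. The list's median log2 fold change was 0.36, with single genes from −0.91 (Retnlg) to 1.38 (Mmp8). Against IL-4, 18 of the 20 were called higher with IL-6 (13.6% of tested genes), and 15 of the 20 were called lower with IL-4 than in control (8.89%). IL-6 #3 had the highest granulocyte sum and the lowest stefin A sum of the IL-6 libraries, and IL-4 libraries had lower granulocyte sums than all controls while their stefin A sums overlapped those of control. The part of granulocytes in the stefin A levels was not tested.

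**Figure D3:**
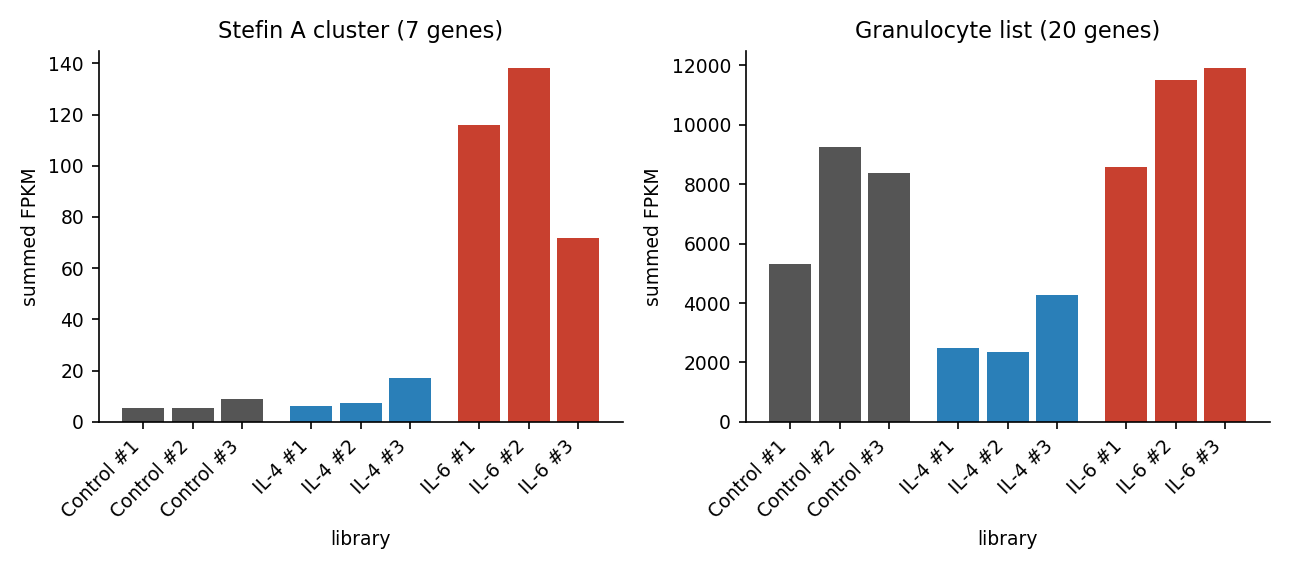
Summed FPKM of the 7 stefin A genes (left) and of 20 markers of neutrophils and granulocyte precursors (right) in each library, on axes that start at 0. Stefin A sums are 71.9 to 138 with IL-6 and 5.53 to 17.2 elsewhere, while granulocyte sums are 8590 to 11900 with IL-6 and already 5310 to 9270 in control.

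Keratinocytes are the other cells known for stefin A. Of 14 keratinocyte genes, Krt1, Krt6a, Sprr1a and Sprr1b were at 0 in all libraries, and Krt5 and Krt14 were at 0 in control and did not pass 0.0563 FPKM anywhere. The list summed to between 2.07 and 3.37 FPKM in control libraries, between 1.31 and 2.15 in IL-4 libraries and between 4.86 and 7.09 in IL-6 libraries, and Tgm1, a transglutaminase, made up most of that at 4.44 to 6.62 with IL-6. Krt10 was low in all libraries, at 0.246 to 0.524 FPKM with IL-6 and 0.374 to 0.889 with IL-4. The part of keratinocytes in the stefin A levels was not tested.

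Promoter windows are shown for 6 of the 7 stefin A genes. That of 2010005H15Rik, which was also higher with IL-6, held neither GAGGAGGAG nor TTTAAA. The part of either sequence in the stefin A levels was not tested. The windows are the 70 bases before the RefSeq start site (GRCm38.p6, 5′ to 3′ on the gene's strand), and capitals mark GAGGAGGAG and the TATA-like TTTAAA.
Stfa2l1: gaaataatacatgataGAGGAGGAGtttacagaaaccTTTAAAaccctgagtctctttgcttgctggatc
Gm5483: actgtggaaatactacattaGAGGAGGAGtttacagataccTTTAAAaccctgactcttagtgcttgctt
Stfa1: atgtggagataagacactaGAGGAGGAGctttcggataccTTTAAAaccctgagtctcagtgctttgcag
BC100530: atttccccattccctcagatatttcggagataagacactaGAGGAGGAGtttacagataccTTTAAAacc
Stfa2: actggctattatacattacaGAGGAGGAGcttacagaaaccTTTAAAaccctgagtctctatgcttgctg
Stfa3: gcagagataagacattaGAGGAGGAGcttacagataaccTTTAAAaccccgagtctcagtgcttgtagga

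These windows lie at chr16:36156741-36156810, chr16:36184142-36184211 and chr16:36277078-36277147 on the plus strand and at chr16:36367571-36367640, chr16:36408364-36408433 and chr16:36455393-36455462 on the minus strand. RefSeq promoters of 250 bases before to 50 after the start were matched for 8 of the 9 members, and Cstb had none. TTTAAA occurred in 6 of the 8, against 13.2% of 32851 mouse promoters on either strand, and began 29 to 33 bases before the start in Stfa2l1, Gm5483, Stfa1, Stfa2 and Stfa3. In BC100530 it began 9 bases before the RefSeq start. GAGGAGGAG, chosen after the windows had been read, was separated from TTTAAA by 12 bases in 5 of them and by 13 bases in Stfa3. On the gene's strand this block with 10 to 20 bases between its parts was present in 9 of 32851 promoters (0.0274%). Of these, 6 belong to the members shown, 1 to Cstdc3 of the same cluster and 2 to Grm7, a glutamate receptor gene.

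Other motifs were searched on both strands in the same promoters. The STAT motif TTCNNNGAA occurred in Gm5483 only (8.3% of all promoters), and the same motif with 1 more free base in its middle occurred in Stfa2 only (7.0%). STAT factors act downstream of IL-6 and IL-4 receptors. The C/EBP-like TTNNGCAA occurred in BC100530 and Stfa1 (10.8%) and the PU.1-like GAGGAAGT in none (3.2%). A match in such a window is only a match of letters. The promoters of Stfa2l1, Stfa3, 2010005H15Rik and Cst3 held none of these other motifs.

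Cystatin B was abundant in every library and showed no separation of control from either cytokine. Cstb measured 485, 707 and 667 FPKM in control libraries, 641, 639 and 1050 in IL-4 libraries and 587, 594 and 607 in IL-6 libraries. The means were 620 ± 119, 776 ± 235 and 596 ± 10.3 (SD, n = 3). The IL-6 values all lay inside the control range, at 0.961 times the control mean. They lay below all 3 IL-4 values, at 0.768 times the IL-4 mean, as did 20.6% of tested genes, but the IL-4 mean rests on IL-4 #3 and the ratio was 0.931 without that library. Cstb alone thus stood at several times the summed stefin A level even with IL-6.

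Cystatin C was the member that was lower with IL-6. Cst3 measured 463, 687 and 583 FPKM in control libraries, 529, 587 and 1210 in IL-4 libraries and 265, 308 and 295 in IL-6 libraries. The IL-6 mean of 290 ± 22.0 was 0.501 times the control mean of 578 ± 112 and 0.373 times the IL-4 mean of 777 ± 380. All IL-6 libraries lay below all control libraries, as did 23.2% of tested genes, and below all IL-4 libraries. Control and IL-4 overlapped, and the IL-4 to control ratio of 1.34 was 0.966 without IL-4 #3. Without that library the IL-6 to IL-4 ratio was 0.519, and inside the libraries without intestinal transcripts, where IL-4 #3 remains, it was 0.321. The log2 fold change of Cst3 between IL-6 and control libraries, −0.98 in the model of groups alone, was −1.65 once the division was a term.

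**Figure D4:**
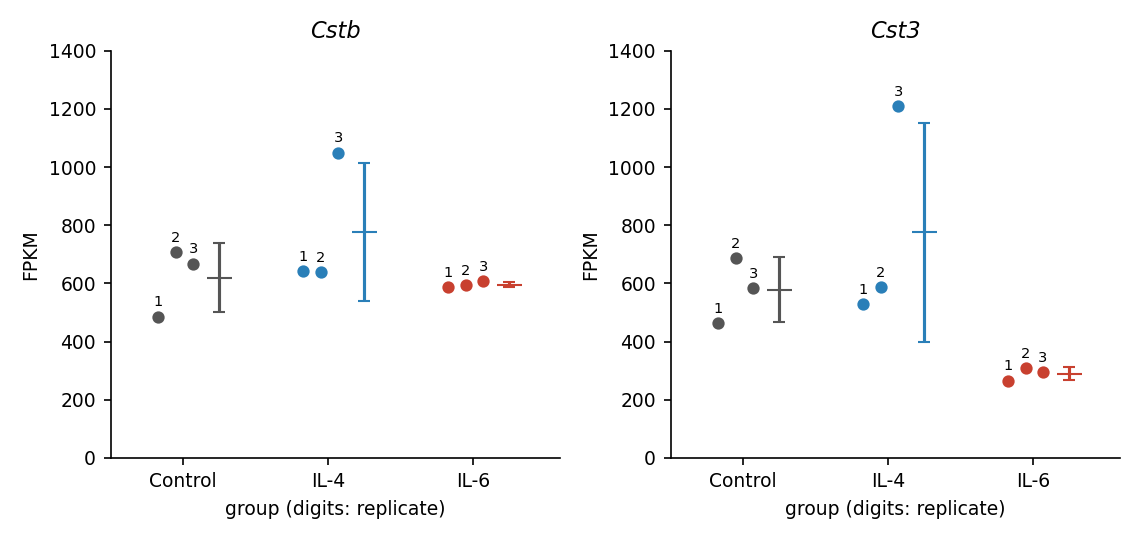
Cstb (left) and Cst3 (right) in FPKM by group, with a numbered point for each library and the mean with its SD beside them (n = 3). Cstb with IL-6 sits inside the control range at 587 to 607, Cst3 with IL-6 sits at 265 to 308 below all other libraries, and IL-4 #3 is the highest point of both panels.

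In control Mϕs Cstb and Cst3 stood level, with overlapping ranges, and with IL-6 they came apart at 596 and 290 FPKM. The inhibitors of this family differed in direction with IL-6, with the stefin A genes higher, Cstb inside the control range and Cst3 lower. These values come from the same 3 IL-6 and 3 control libraries.

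Of 20 other cystatin family genes in the table, 12 were at 0 in all libraries. Csta1 (cystatin A1) had 2 fragments in IL-4 #1 and 0 elsewhere. Gm5416, next to the members in the cluster, had 0 fragments in control and IL-4 libraries and 12, 20 and 6 with IL-6, at least 12.9-fold higher than the floor of the control group, but it was below the filter and was not tested.

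Cst7 was the only further family gene above the filter. It encodes cystatin F, an inhibitor of immune cells that is sent to lysosomes and acts on cathepsin C. Cst7 measured 2.56, 4.36 and 4.57 FPKM in control libraries, 7.92, 5.49 and 8.08 in IL-4 libraries and 16.6, 16.5 and 15.9 in IL-6 libraries. It was called higher with IL-6 than in control (log2 fold change 2.11 ± 0.242 SE, limma adjusted p = 0.00167, higher in all 9 pairs of libraries). With the intestinal division as a term in the model its log2 fold change was 2.36 and the call was lost (limma adjusted p = 0.0597). It was also called higher with IL-6 than with IL-4 (log2 fold change 1.20 ± 0.242, limma adjusted p = 0.00636), a call lost after rescaling by median ratios. For IL-4 against control the log2 fold change of 0.91 stayed under the fold threshold (limma adjusted p = 0.0268).

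The targets of these inhibitors were followed in 11 cysteine proteases, 10 cathepsins and the asparaginyl protease legumain (Lgmn), all above the filter. With IL-6 1 of the 11 was called higher than in control and 0 lower, against 3.49% and 1.89% of tested genes, and the list's median log2 fold change was −0.02. At an unadjusted p under 0.05 there were 4, against 21.3% of tested genes. The gene called was Ctsc, cathepsin C, which activates the serine proteases of granules. It measured 46.9, 39.7 and 41.0 FPKM in control and 213, 183 and 202 with IL-6 (log2 fold change 2.23 ± 0.323 SE, limma adjusted p = 0.00475). Ctsb, the most abundant of the 11 in control libraries, had a log2 fold change of −0.51 (limma adjusted p = 0.0427), under the fold threshold.

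With IL-4 4 of the 11 proteases were called higher than in control and 0 lower, against 5.02% and 8.89% of tested genes. Ctsk, the collagenolytic cathepsin of osteoclasts, went from 5.19, 7.43 and 9.01 FPKM to 163, 232 and 277 (log2 fold change 4.94 ± 0.244, limma adjusted p = 7.19e-06). Ctsl rose by 1.60, Ctss by 1.29 and Ctsw by 2.23 on the log2 scale, and Ctss fell under the fold threshold after quantile normalization. Ctsw was a low gene, with a control mean of 0.329 FPKM (63 fragments), under the 0.5 used as filter. Its mean was 1.92 FPKM (388 fragments) in IL-4 libraries and 0.592 FPKM (110 fragments) in IL-6 libraries. Ctsh had a log2 fold change of −0.93 (limma adjusted p = 0.000727), which passed the fold threshold after quantile normalization (−1.04). Of 10 Mϕ markers, 5 were called lower and 1 higher with IL-4 than in control, against 8.89% and 5.02% of tested genes. The summed level of 7 mast cell and basophil markers was 29.4 to 46.2 FPKM with IL-4 against 5.94 to 12.2 in control. Of those 7, 4 had a mean of at least 0.5 FPKM with IL-4 and 5 in control. The part of cell types in the protease changes was not tested. Against IL-4, IL-6 libraries had Ctsc called higher and Ctsk, Ctss and Ctsw called lower, against 13.6% and 6.82% of tested genes. Without IL-4 #1, Ctsz was also called higher with IL-4 than in control, and Ctsl and Ctsz were also called lower with IL-6 than with IL-4. For IL-6 against IL-4, a model with the division as a term compares the same libraries. Its calls of Ctsl and Ctsz there repeat the fit without IL-4 #1. Median-ratio rescaling also gave the call of Ctsl. The plot of protease changes sets both cytokines side by side, and both share the control libraries.

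**Figure D5:**
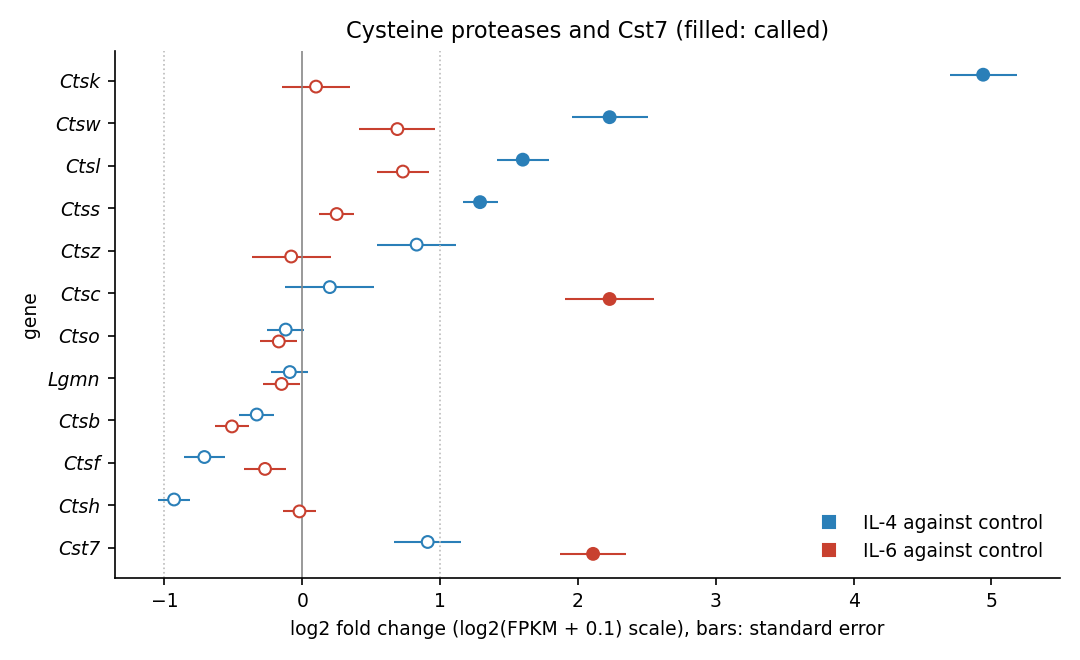
Log2 fold change against control of 11 cysteine proteases and Cst7, with standard errors, for IL-4 and IL-6; filled points were called and dotted lines mark a log2 fold change of 1 in either direction. Ctsc and Cst7 are the filled points of IL-6, and Ctsk, Ctsw, Ctsl and Ctss those of IL-4.

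The genes whose levels over the 9 libraries were most like the stefin A sum were Adora2a, Traf1, Fscn1, Htra1, Gpr132, Nectin2, Saa3, Ifi206, Sod2 and Cpne8, with Pearson r from 0.9619 to 0.9745. Since the IL-6 libraries stand apart from the other 6, such values mostly restate the difference between groups. Saa3, an acute-phase protein, had group means of 0.78, 3.34 and 2120 FPKM for control, IL-4 and IL-6, and Sod2, the mitochondrial superoxide dismutase, had 22.4, 21.9 and 128. The genes most like Cstb were Bud31, Gtf2f1, Psma6, Btf3 and Tma7 (r from 0.9774 to 0.9847), and those most like Cst3 were Mecr, Thoc5, Lgals1, Fuca1 and Acads (r from 0.9924 to 0.9996). Lgals1, which encodes galectin-1, had group means of 993, 1630 and 435 FPKM in the same order. Ranked by Spearman rho instead, the listed genes came 1 to 259 for stefin A, 2 to 694 for Cstb and 1 to 16 for Cst3. For Cstb and Cst3 the r values can also lean on IL-4 #3, the highest library of both.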

How the data were processed

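RNA-seq of mouse BM-derived Mϕs was analysed from the table of FPKM values that the authors deposited. Per the study's methods and processing notes, reads were aligned to GRCm38 with STAR 2.4.2a, and Cufflinks 2.2.1 gave the values. FPKM steps were whole fragments over exon lengths for 100.0% of 183346 values (within 0.05), which a counter gives and Cufflinks need not, so the program is not settled. Library totals and fragments were read from these steps, for Stfa1, Stfa2, Stfa2l1 and Gm5483 with lengths inferred from the steps. Intervals (95%) and the floor of 3 fragments cover counting error only.

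The 12824 genes with a mean of at least 0.5 were fitted as log2(FPKM + 0.1) in 3 groups with limma 3.58.1 (R 4.3.3, trend and robust options), adjusted by Benjamini-Hochberg over all of them. Calls needed an adjusted p under 0.05 together with a log2 fold change of 1 or more in size. Because of the pseudocount of 0.1, log2 fold changes understate low genes. The code of the fit was run on simulated counts, where it recovered 200 of 200 changed genes for IL-6 against control with 3 false calls. The simulation held no library division, the same dispersion for all genes and no low genes among those changed. It therefore does not bear on low genes or on the division. Errors are SD over 3 libraries, ratios are of mean FPKM, and p-values measure the spread between these libraries. Replicate numbers were taken as mice: same-numbered libraries correlated in their deviations at 0.521, −0.415 and 0.0777 (control and IL-4), 0.408, 0.201 and 0.166 (control and IL-6) and 0.281, −0.0612 and 0.153 (IL-4 and IL-6).

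Members, gene lists and named genes (all 9 members, listed family genes and proteases above the filter, and the genes most correlated with them) were chosen with earlier results of these data known. Alternatives were other pseudocounts (1 or 0.01), filters (none, or a mean of 5), median-ratio and quantile scaling, the compared groups alone, a replicate block, the library division as a term, voom on fragments, leaving out each library and, chosen after seeing the data, removal of a length trend (spline with 5 degrees of freedom).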

Additional observations from a re-analysis of the deposited data

How the results depend on the processing

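The stefin A sum with IL-6 stayed at 14.1 to 19.6 times control and 8.88 to 16.0 times IL-4 when each library was left out, and at 16.2 to 20.8 and 8.6 to 15.9 times under the other scalings, the length trend, medians and pairing. Pseudocounts, the filter, voom and the division as a term were run on single genes, not on the sum. With IL-4 it was 1.02 to 1.85 times control without each library. Cst3 with IL-6 was 0.456 to 0.554 times control without each library. Pairing libraries by number (the replicate block) gave 17.9 times control for stefin A with IL-6, 0.987 for Cstb and 0.509 for Cst3, and changed no count of called proteases or family genes. Quantile normalization brought the Cstb ratio of IL-6 to IL-4 to 1.0, and its log2 fold change to 0.01 there and −0.02 for IL-4 against control. The log2 fold change of Cst3 for IL-4 against control was −0.11 with the library division as a term and −0.03 without IL-4 #3 (up to 0.57 without other libraries). For IL-6 against control the division as a term gave the stefin A genes log2 fold changes of 1.26 (Stfa2l1) to 6.39 (2010005H15Rik). After quantile normalization that of Ctsb for IL-6 against IL-4 was 0.07, and that of Ctss for IL-6 against control was 0.0. Without the fold threshold 2 proteases were called between IL-6 and control libraries, beside 1077 of all 12824 tested genes. Between IL-6 and IL-4 libraries 7 proteases were called, beside 4375 tested genes. Between IL-4 and control libraries 6 proteases were called, beside 3186 tested genes, and Cst7 was the 1 family gene called there. Cst7 was also the 1 called for IL-4 under median-ratio and quantile scaling and without Control #2, Control #3 or IL-4 #2, and leaving out other libraries gave 0. Of the family genes, 2 were called for IL-6 against either group without a filter, 0 against control with the division as a term and 0 against IL-4 under median-ratio scaling. Ctss lost its IL-6 against IL-4 call under quantile scaling and without the length trend, and Ctsw with a pseudocount of 1, while Ctsh gained one (1.11) under quantile scaling. The cause of these changes was not tested. Over all tested genes, 690 were called for IL-6 against control in the model as described and 187 with the division as a term. Low counts limit the folds of BC100530, Stfa2, Stfa3 and 2010005H15Rik.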
